A study of Mus musculus with 4 samples.

Results

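The 10 genes described here are immediate early genes, which cells transcribe within minutes of a stimulus without making new protein first: Egr1, Egr2, Egr3, Fos, Fosb, Jun, Junb, Nr4a1, Dusp1 and Ier2. They were taken by name from the gene column, and all 10 were among the 33114 named genes measured. RNA-seq of polyadenylated RNA was done on flow-sorted thymocytes of Rag1-/- mice, so every group lacks the recombinase subunit that assembles antigen receptor genes, and no wild-type thymocytes were compared. The groups were NOD mice, an inbred strain prone to autoimmune diabetes, at 6.5 and 4 weeks of age, and C57BL/6 (B6) mice at 7 and 4 weeks of age. Each group was 1 library, neither the sort markers nor any pooling of animals is stated in the labels, and the study's title concerns failure of an early T-cell checkpoint and the start of leukaemia in the NOD mice.

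Egr1, Egr2 and Egr3 encode zinc finger transcription factors that are induced through the Ras and ERK kinases. In developing thymocytes they are known as reporters of signalling from the pre-TCR, the receptor that a rearranged beta chain forms at the beta-selection checkpoint, and Rag1-deficient thymocytes cannot make that chain. Fos, Fosb, Jun and Junb encode subunits of the AP-1 transcription factor, Nr4a1 encodes an orphan nuclear receptor induced by antigen receptor signals, Dusp1 encodes a phosphatase that switches off MAP kinases, and Ier2 encodes a short-lived nuclear protein. Many of these genes are also known to be switched on while tissue is dissociated and cells are sorted.

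Levels are given as RPKM, which divides reads by gene length and by sequencing depth, and are therefore comparable between genes. The recovered depth was 17040000 to 24080000 reads a library, and between 11841 and 12278 genes reached 1 RPKM. Intervals are 95% exact intervals on the reads behind a value and cover counting error only, because amplified reads are not independent molecules. In bulk RNA, fewer cells of a type and less RNA per cell cannot be told apart. Rag1 itself was listed at 91.71, 121.42, 108.0 and 132.9 RPKM in NOD week 6.5, NOD week 4, B6 week 7 and B6 week 4, so its transcript level does not check the knockout. Il2ra, which marks the double negative stages before beta-selection, stood at 422.44 to 531.06 RPKM. The B-cell genes Ms4a1 and Pax5 and the thymic epithelial gene Foxn1 were listed at 0 in all 4 libraries, while other genes of those marker lists were expressed, with Cd79b at 23.8 to 37.41 RPKM, Igh-6 at 11.44 to 33.84 RPKM and Epcam at 13.21 to 34.21 RPKM.

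**Figure D1:**
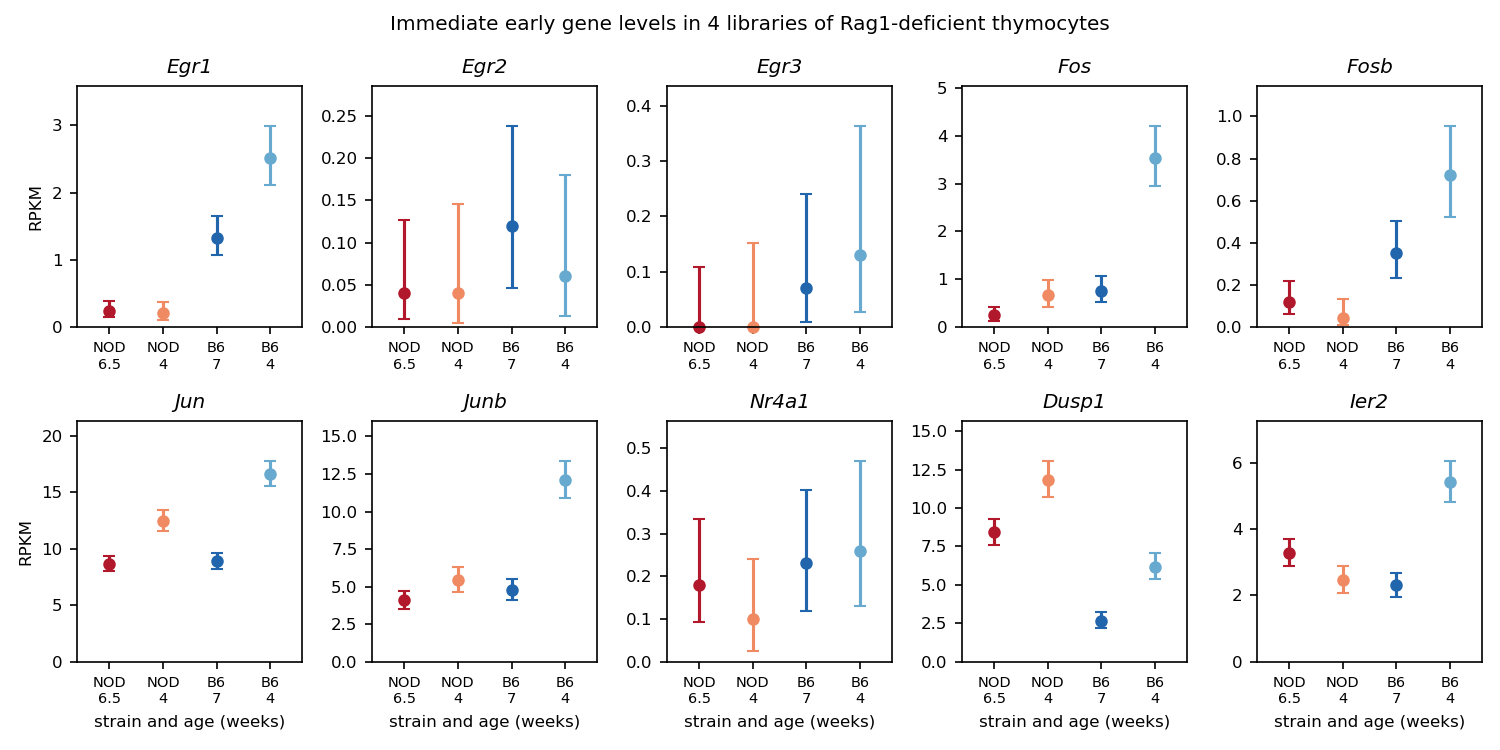
Levels of the 10 immediate early genes in RPKM (vertical axes, linear, each with its own scale) in the 4 libraries, from NOD week 6.5 and NOD week 4 to B6 week 7 and B6 week 4. Points are the deposited values and bars are 95% counting intervals. B6 week 4 is the highest library for 8 of the 10 genes, and for 5 of the 6 with a mean of 1 RPKM or more. It is the highest for 40.9% of all genes of that level. Dusp1 is higher in both NOD libraries.

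Egr1 was the only tested member that limma called by strain. The call was lost without a filter, and Egr1 passed the filter of 1 RPKM in 2 libraries through its B6 values alone. It was listed at 0.24 RPKM (18 reads) in NOD week 6.5 and 0.21 RPKM (11 reads) in NOD week 4, against 1.33 RPKM (87 reads) in B6 week 7 and 2.52 RPKM (132 reads) in B6 week 4. Both NOD libraries lay below both B6 libraries, and the NOD libraries were indistinguishable from each other, with a ratio of NOD week 6.5 to NOD week 4 of 1.14 (0.525 to 2.75). The mean was 0.225 ± 0.0212 RPKM in NOD and 1.93 ± 0.841 RPKM in B6 (SD, n = 2 each). At matched ages the NOD value was 0.0833 times the B6 value at week 4 (0.04 to 0.152) and 0.18 times the B6 value at the later age (0.103 to 0.305). Even the smaller difference therefore spanned a factor of more than 3, by the upper bound of its interval. Within B6, the week 7 level was 0.528 times the week 4 level (0.399 to 0.699).

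In the limma fit across all genes, Egr1 was lower in NOD by a log2(RPKM + 1) difference of -1.23 (SE 0.221), with a Benjamini-Hochberg adjusted p of 0.0238. It was the 1 member called of the 5 that could be tested, where 1.59% of the 12413 genes tested were called lower in NOD and 2.78% were called higher. By the unadjusted p, Egr1 was lower and Dusp1 higher, where 4.45% of genes were lower and 8.23% higher. Egr1 passed the filter of 1 RPKM in 2 libraries through its B6 values alone. With genes kept by a mean of 1 RPKM or more over the 4 libraries, which Egr1 also reaches through its B6 values, limma's adjusted p was 0.0308, and 1.3% of genes were then called lower and 2.42% higher. Without any filter it was 0.163, and without an intensity trend in the variance it was 0.0509, so the call is lost under those settings while the difference stays at -1.23. The p-values rest on the spread between these 4 libraries, in which the libraries of a strain also differ in age. Limma draws the variance of each gene toward that of other genes, so they do not rest on the spread of Egr1 alone.

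Egr2 and Egr3 were near the limit of detection. Egr2 had 3, 2, 7 and 3 reads in NOD week 6.5, NOD week 4, B6 week 7 and B6 week 4, or 0.04, 0.04, 0.12 and 0.06 RPKM. Egr3 had no reads in either NOD library, and 3 reads, the floor used for a count of 0, would be 0.088 RPKM in NOD week 6.5 and 0.123 RPKM in NOD week 4. It had 2 and 3 reads in B6 week 7 and B6 week 4. The B6 values of Egr3, 0.07 and 0.13 RPKM, lie close to those floors, and no strain difference was detectable at this depth for either gene. Egr2 overlaps an annotated long non-coding RNA gene, Gm32255, and with no strand-specific step in the labelled protocol the reads of the pair cannot be told apart.

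Fos, the founding AP-1 subunit, set B6 week 4 apart from the other 3 libraries. Its levels were 0.24 RPKM in NOD week 6.5 and 0.67 RPKM in NOD week 4, against 0.76 RPKM in B6 week 7 and 3.53 RPKM in B6 week 4, from 12, 24, 34 and 126 reads. The strains did not overlap, yet B6 week 7 and NOD week 4 could not be separated, with a ratio of 1.13 (0.664 to 2.03). B6 week 4 stood 4.64 times above the next library (3.14 to 6.95), the largest such gap among the 10 genes. Fos averaged 0.455 ± 0.304 RPKM in NOD and 2.15 ± 1.96 RPKM in B6 (SD, n = 2 each). It missed the limma filter, and in the fit over the 12222 genes with a mean of 1 RPKM or more its strain difference was -0.97 (SE 0.411, limma adjusted p = 0.415).

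Fosb, a close relative of Fos, was scarcer and had the same order of libraries as Egr1. It had 0.12 and 0.04 RPKM in NOD week 6.5 and NOD week 4, from 11 and 3 reads, against 0.35 and 0.72 RPKM in B6 week 7 and B6 week 4, from 28 and 46 reads. Both B6 libraries lay above both NOD libraries, and the ratio of B6 week 7 to NOD week 6.5, the nearest pair across strains, was 2.92 (1.39 to 6.43). No level of Fosb reached 1 RPKM, so it entered the limma fit without a filter only, with a strain difference of -0.50 and an adjusted p of 0.289.

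Jun and Junb were far more abundant than Fos and Fosb. Jun stood at 8.65 and 12.47 RPKM in NOD week 6.5 and NOD week 4, against 8.91 and 16.65 RPKM in B6 week 7 and B6 week 4, from 592 to 889 reads. The strains overlapped, and the later libraries of both strains lay below both week 4 libraries. At the later age, Jun in NOD was 0.971 times its B6 level (0.868 to 1.09), and at week 4 it was 0.749 times (0.676 to 0.828). Junb stood at 4.1 and 5.46 RPKM in NOD week 6.5 and NOD week 4, against 4.76 and 12.07 RPKM in B6 week 7 and B6 week 4, from 171 to 374 reads. As for Fos, B6 week 4 stood apart, 2.21 times above the next library (1.85 to 2.67), and the other 3 libraries were not separated from their neighbours in level. In limma's test across all genes neither strain difference was called, at -0.21 for Jun (adjusted p = 0.818) and -0.60 for Junb (adjusted p = 0.589). With a library left out, the strain difference of Junb ran between -0.01 without B6 week 4 and -1.19 without B6 week 7 (limma adjusted p = 0.0506).

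The sequences upstream of Fos, Fosb, Junb and Dusp1 are shown because each holds a short element, which Egr2 and Nr4a1 also hold. The strains overlapped for Junb, while Fos and Fosb were lower in both NOD libraries and Dusp1 was higher in both. Whether the element relates to strain order was not tested. The windows are the 250 bases before the annotated start, read on the strand of the gene from RefSeq on GRCm38.p6, and the capitals mark TGACG on either strand, the core of the cAMP response element (CRE). Fos lies at chr12:85473640-85473889 on the plus strand, and Fosb at chr7:19310046-19310295, Junb at chr8:84978749-84978998 and Dusp1 at chr17:26508473-26508722 lie on the minus strand.
Fos upstream window: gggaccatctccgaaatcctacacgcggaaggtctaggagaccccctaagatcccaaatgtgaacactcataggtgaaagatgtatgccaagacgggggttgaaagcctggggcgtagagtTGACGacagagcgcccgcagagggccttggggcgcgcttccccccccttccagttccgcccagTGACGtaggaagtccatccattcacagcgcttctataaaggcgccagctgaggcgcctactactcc
Fosb upstream window: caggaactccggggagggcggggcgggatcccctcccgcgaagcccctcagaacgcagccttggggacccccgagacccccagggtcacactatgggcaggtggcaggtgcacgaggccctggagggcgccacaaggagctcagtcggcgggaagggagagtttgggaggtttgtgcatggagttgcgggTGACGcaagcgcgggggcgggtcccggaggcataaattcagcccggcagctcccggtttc
Junb upstream window: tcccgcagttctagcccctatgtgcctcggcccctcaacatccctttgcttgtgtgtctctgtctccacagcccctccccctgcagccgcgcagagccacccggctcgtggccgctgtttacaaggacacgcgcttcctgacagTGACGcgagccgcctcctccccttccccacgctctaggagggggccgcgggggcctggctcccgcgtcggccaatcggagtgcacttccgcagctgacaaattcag
Dusp1 upstream window: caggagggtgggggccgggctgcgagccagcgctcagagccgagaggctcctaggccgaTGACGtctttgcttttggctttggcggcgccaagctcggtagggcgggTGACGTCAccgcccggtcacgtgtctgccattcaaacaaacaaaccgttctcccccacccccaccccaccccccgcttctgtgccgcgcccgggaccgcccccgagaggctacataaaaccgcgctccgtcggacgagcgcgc

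Of the 10 genes, 7 were matched to the table of promoters, which did not list Egr1, Egr3 and Ier2. TGACG was found on either strand in at least 1 window of 6 of the 7, against 17.8% of all 32851 windows of the same length, and Jun had no match. The count for Egr2 took any of its 5 windows, while the share is per window, so the measures are unlike. The full palindrome TGACGTCA, which contains overlapping cores on both strands, was found in Dusp1 alone, 143 to 136 bases before the start, against 1.5% of windows. The AP-1 element TGANTCA was in none of the windows of the 7 genes, against 6.7% of all windows. The CArG box, which serum response factor binds, was found in Egr2, in 4 of its 5 alternative start windows, against 1.5% of windows. At starts 3, 4 and 5 it kept the same spacing to the CRE cores, so these matches may be 1 site. The Egr element GCGNGGGCG was found in Fosb and Nr4a1, against 4.7% of windows. These are matches of letters within 250 bases and describe no binding, and no match says only that the letters are not in this window.

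**Figure D2:**
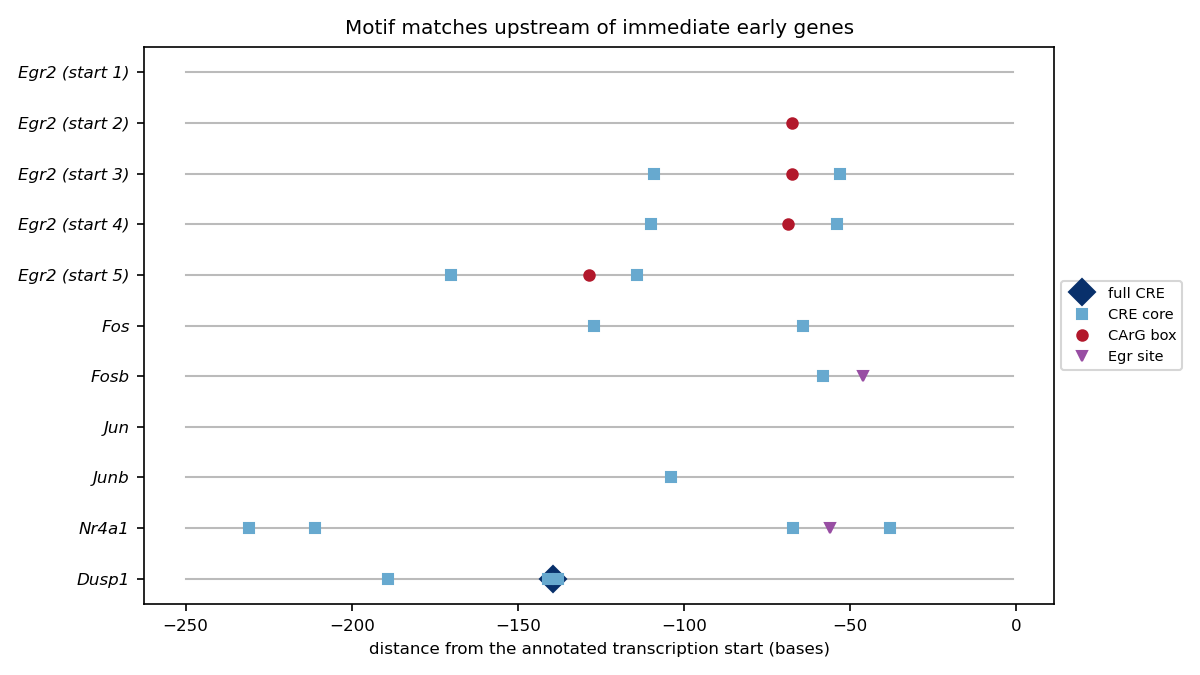
Positions of 4 motifs in the 250 bases before each annotated start (horizontal axis, distance in bases) for the 7 genes with a window, with 5 alternative starts for Egr2. Squares are CRE cores, the diamond the full CRE of Dusp1, circles CArG boxes and triangles Egr sites; CRE cores occur in 6 of the 7 genes and the grey line of Jun is empty.

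Nr4a1 was close to absent. It was listed at 0.18 and 0.10 RPKM in NOD week 6.5 and NOD week 4, against 0.23 and 0.26 RPKM in B6 week 7 and B6 week 4, from 11, 4, 12 and 11 reads. The NOD values lie below the B6 values, but no neighbouring pair in the order was separated by its counting interval. Without a filter its strain difference was -0.13 (limma adjusted p = 0.443).

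Dusp1 was the 1 gene of the 10 with both NOD libraries above both B6 libraries. It stood at 8.41 RPKM (391 reads) in NOD week 6.5 and 11.83 RPKM (395 reads) in NOD week 4, against 2.68 RPKM (110 reads) in B6 week 7 and 6.17 RPKM (203 reads) in B6 week 4. All neighbouring libraries in this order were separated by their counting intervals. Dusp1 in NOD was 1.92 times its B6 level at week 4 (1.62 to 2.28) and 3.14 times at the later age (2.53 to 3.91). The mean was 10.1 ± 2.42 RPKM in NOD and 4.42 ± 2.47 RPKM in B6 (SD, n = 2 each). The limma difference of 1.10 (SE 0.337) was not called, at an adjusted p of 0.188. With age class as a block, limma's adjusted p was 0.000237, but that p rests on the variance pooled over genes, not on the spread of Dusp1 itself. Without the B6 week 4 library the difference was 1.58, in a fit where B6 is 1 library assumed to vary as NOD does. Without B6 week 7, where the same holds, the difference was 0.62, and without NOD week 4 it was 0.87.

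Ier2 showed no order by strain. It stood at 3.28 RPKM (260 reads) in NOD week 6.5 and 2.46 RPKM (140 reads) in NOD week 4, against 2.3 RPKM (161 reads) in B6 week 7 and 5.41 RPKM (304 reads) in B6 week 4. The strains overlapped, and B6 week 4 was the highest library, 1.65 times above the next (1.4 to 1.96). The limma strain difference was -0.26 (adjusted p = 0.78).

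Of the 10 genes, 6 had both NOD values below both B6 values, namely Egr1, Egr2, Egr3, Fos, Fosb and Nr4a1. Among these, Egr2, Egr3, Fosb and Nr4a1 had a mean under 1 RPKM, and no share over all genes was taken at that level. Dusp1 had both NOD values above both B6 values, and Jun, Junb and Ier2 overlapped, although Junb was also below in NOD after median ratio scaling. Among the 6 genes with a mean of 1 RPKM or more, 2 lay below (Egr1 and Fos) and 1 above (Dusp1), where 18.6% of all 12222 such genes lay below and 24.9% above. B6 week 4 was the highest library for 8 of the 10 genes and for 5 of those 6, and it was the highest for 40.9% of all such genes. After the libraries were rescaled by the median ratio over genes, it was the highest for 7 of the 10 and 5 of the 6, against 21.1% of all such genes. The counting intervals are too wide in Egr2, Egr3 and Nr4a1 for their place in these counts to carry weight.

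A comparison within each library does not depend on how libraries are scaled to each other, and Jun, the member with the most reads, served as the common denominator. Egr1 was 2.77% of the Jun level in NOD week 6.5 (1.66 to 4.48%) and 1.68% in NOD week 4 (0.826 to 2.99%), against 14.9% in B6 week 7 (11.8 to 18.8%) and 15.1% in B6 week 4 (12.5 to 18.2%). Relative to Jun, Egr1 was thus nearly equal in the B6 libraries and low in both NOD libraries. Dusp1 was 97.2% of Jun in NOD week 6.5 (85.5 to 110.0%) and 94.9% in NOD week 4 (83.6 to 108.0%), against 30.1% in B6 week 7 (24.4 to 37.0%) and 37.1% in B6 week 4 (31.7 to 43.2%). Its intervals overlap within each strain and are far apart between strains.

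Against the same denominator, Fos and Junb also had their NOD values below their B6 values, but here B6 week 4 stood apart from B6 week 7. Fos was 2.77% of Jun in NOD week 6.5 (1.41 to 4.84%) and 5.37% in NOD week 4 (3.39 to 7.99%), against 8.53% in B6 week 7 (5.9 to 12.1%) and 21.2% in B6 week 4 (17.5 to 25.6%). B6 week 4 was alone at the top, and the intervals of NOD week 4 and B6 week 7 overlapped. Junb was 47.4% of Jun in NOD week 6.5 and 43.8% in NOD week 4, against 53.4% in B6 week 7 and 72.5% in B6 week 4, and the first 3 of these intervals overlap. Ier2 was 37.9% and 19.7% of Jun in NOD week 6.5 and NOD week 4, against 25.8% and 32.5% in B6 week 7 and B6 week 4, with no order by strain. Fosb was 1.39% and 0.321% of Jun in NOD week 6.5 and NOD week 4, against 3.93% and 4.32% in B6 week 7 and B6 week 4. Whether Egr1 and Fos differ in their response to strain was not tested.

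**Figure D3:**
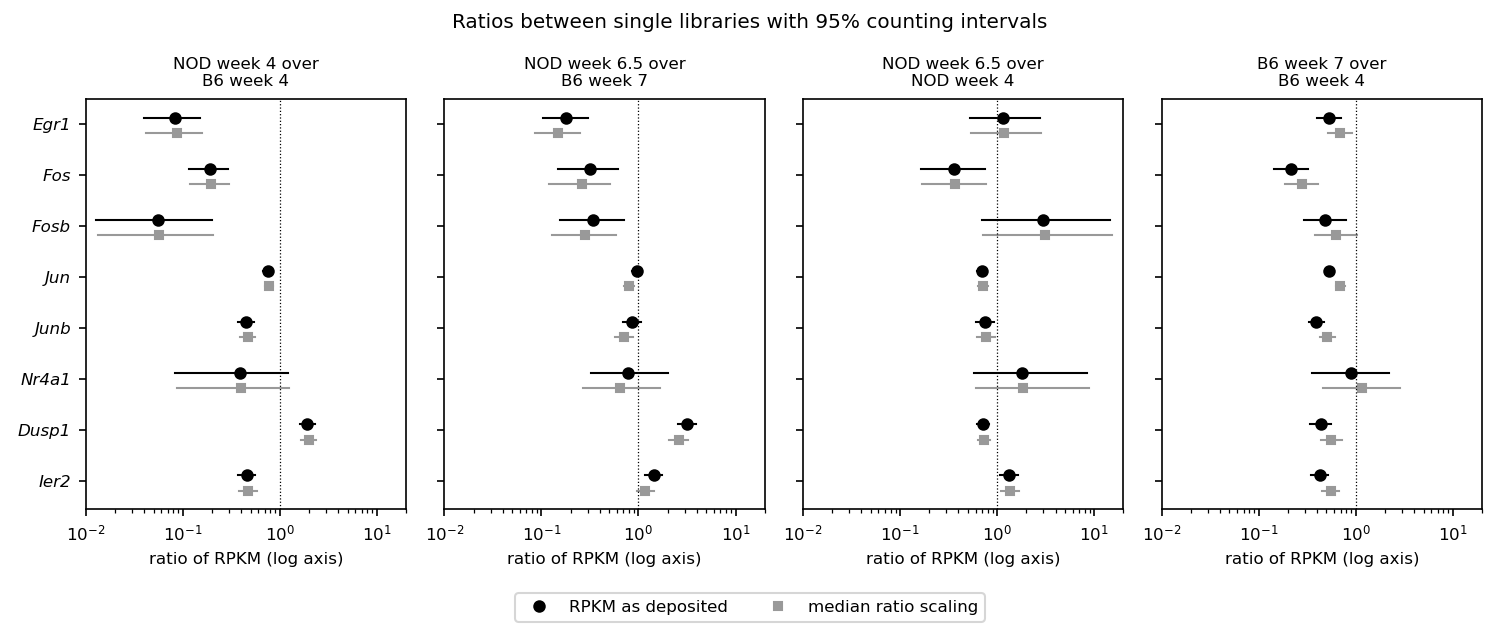
Ratios of RPKM between single libraries (horizontal axes, logarithmic) for the 8 genes with enough reads, at matched ages (NOD over B6, left panels) and within strains (later over week 4, right panels). Circles are ratios of the deposited values, squares the ratios after median ratio scaling, and bars 95% counting intervals; Egr1, Fos and Fosb lie below 1 in both left panels and Dusp1 above 1 in both.

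The age comparisons rest on 1 library a side and give no p-value when made within a strain. For B6 week 7 over B6 week 4, every interval of the 6 genes with a mean of 1 RPKM or more lay below 1, where 59.4% of the genes of that level did so and 7.91% lay above. The ratios of B6 week 7 to B6 week 4 were 0.215 for Fos (0.144 to 0.319), 0.394 for Junb (0.329 to 0.473), 0.425 for Ier2 (0.349 to 0.516), 0.434 for Dusp1, 0.528 for Egr1 and 0.535 for Jun. The median gene had a log2(RPKM + 1) difference of -0.3 in this comparison, so part of each ratio is shared with most genes. After median ratio scaling the ratios were 0.279 for Fos, 0.511 for Junb, 0.551 for Ier2, 0.563 for Dusp1, 0.684 for Egr1 and 0.694 for Jun, with all 6 intervals still below 1, against 30.2% of genes below and 29.2% above. Fos and Junb were past a 2-fold difference on RPKM + 1, as were 2.99% of the genes of that level in the same direction and 0.196% in the other.

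In NOD the same age comparison gave a smaller and mixed picture. The ratio of NOD week 6.5 to NOD week 4 was 0.358 for Fos (0.163 to 0.746), 0.694 for Jun, 0.751 for Junb (0.606 to 0.932) and 0.711 for Dusp1 (0.616 to 0.819). It was 1.33 for Ier2 (1.08 to 1.65), while the interval of Egr1 included 1. This made 4 of 6 intervals below 1 and 1 above, where 25.8% of genes lay below and 12.5% above, and no member was past 2-fold, against 0.638% of genes higher and 0.123% lower. Over both strains, Jun and Junb had both later values below both week 4 values, as did 29.4% of genes, with 3.59% above. After median ratio scaling this held for Jun alone. The limma fit by age called 0 of 12413 genes (0.0%), while 0.201% were higher and 1.14% lower at the later age by the unadjusted p. Jun, at -0.66 (SE 0.233), was 1 of those lower genes by its unadjusted limma p of 0.0298, and its adjusted p was 0.97.

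At matched ages the 2-fold counts followed the individual genes. At week 4, Egr1, Fos and Junb were past 2-fold lower in NOD on RPKM + 1, as were 2.03% of genes, and none of the 6 was past 2-fold higher, against 2.49%. The ratio at week 4 was 0.19 for Fos (0.116 to 0.292), 0.0556 for Fosb (0.0128 to 0.2), 0.452 for Junb (0.374 to 0.542) and 0.455 for Ier2 (0.369 to 0.557). At the later age Dusp1 alone was past 2-fold, higher in NOD, as were 5.45% of genes, and 1.55% were past it in the other direction. There the ratio was 0.316 for Fos (0.147 to 0.616), 0.343 for Fosb (0.156 to 0.717) and 0.861 for Junb (0.694 to 1.06). By counting intervals, 5 of the 6 genes were below 1 at week 4 and 1 above, where 31.1% of genes were below and 20.6% above. At the later age 2 were below and 2 above, where 17.5% were below and 53.6% above. After median ratio scaling, which lowers Jun to 0.8 and Junb to 0.71, 4 were below and 1 above, where 33.0% were below and 34.1% above. The 4 comparisons share libraries and are not independent of each other.

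In a wider list of 41 other immediate early genes, no strain difference was called. Of its 25 members tested, limma called 0 in either direction, with 1 higher and 2 lower at an unadjusted p under 0.05. Over all genes tested, 2.78% were called higher in NOD and 1.59% lower, with 8.23% higher and 4.45% lower by the unadjusted p. The median strain difference of the 25 was 0.0 against 0.096 over all genes tested. B6 week 4 was the highest library for 16 of the 26 members with a mean of 1 RPKM or more, against 40.9% of all such genes. After median ratio scaling it was the highest for 11 of the 26, against 21.1% of all such genes. Jund, the third Jun family subunit, which the files list as Jund1, had 20.43 and 19.62 RPKM in NOD week 6.5 and NOD week 4, against 19.9 and 45.15 RPKM in B6 week 7 and B6 week 4. It was thus nearly level in 3 libraries and high in B6 week 4, where Junb was also highest. Socs3, an inhibitor of cytokine signalling, had 14.5 and 17.88 RPKM in NOD week 6.5 and NOD week 4, against 20.28 and 30.53 RPKM in B6 week 7 and B6 week 4. Gadd45b, a stress-induced growth arrest gene, had 0.82 and 1.01 RPKM in NOD week 6.5 and NOD week 4, against 1.67 and 2.27 RPKM in B6 week 7 and B6 week 4 (limma difference -0.63, adjusted p = 0.162), the largest difference of the list.

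The heat shock and dissociation stress genes, which cell handling also induces, were mostly not called by strain. Hspa1a had 0.18 and 0.1 RPKM in NOD week 6.5 and NOD week 4, against 0.08 and 0.23 RPKM in B6 week 7 and B6 week 4, and Hspa1b had 0.18 and 0.14 RPKM in NOD week 6.5 and NOD week 4, against 0.07 and 0.46 RPKM in B6 week 7 and B6 week 4. Of 17 tested genes of the list of heat shock and dissociation stress genes, limma called 1, Hspa8, lower in NOD by -2.33 (adjusted p = 0.00438, or 0.0894 without a filter). Over all genes tested, 1.59% were called lower in NOD and 2.78% higher. Up to 89.0% of the reads of Hspa8, a constitutive chaperone with many near-identical copies, mapped to more than 1 place, so its level is uncertain. The list's median strain difference was 0.02. B6 week 4 was the highest library for 8 of its 17 members with a mean of 1 RPKM or more, against 40.9% of all such genes. After median ratio scaling it was the highest for 5 of the 17, against 21.1% of all such genes. Hspa1a and Hspa1b were also highest in B6 week 4. The low values of Hspa1a and Hspa1b are uncertain too, since up to 100.0% and 91.0% of their reads were shared. Bag3, a co-chaperone that heat shock induces and the member with the next largest strain difference, was highest in NOD week 6.5 at 3.5 RPKM, with 2.03 RPKM in NOD week 4, against 1.2 and 1.57 RPKM in B6 week 7 and B6 week 4.

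Genes that Egr factors are known to regulate, with their Nab corepressors, went in both directions. Of the 8 tested by limma, 1 was called higher in NOD and 0 lower, with 2 higher and 0 lower at an unadjusted p under 0.05. Over all genes tested, 2.78% were called higher and 1.59% lower, with 8.23% higher and 4.45% lower by the unadjusted p. Tnfrsf9, a costimulatory receptor of T cells also called 4-1BB, had 4.12 and 4.77 RPKM in NOD week 6.5 and NOD week 4, against 0.61 and 0.84 RPKM in B6 week 7 and B6 week 4, with a limma difference of 1.66 (SE 0.183, adjusted p = 0.00277). Tnfrsf9 passed the filter through its NOD values alone, and without a filter its limma adjusted p was 0.0718, so it is not called there. Pdcd1, an inhibitory receptor of activated T cells, had 5.6 and 3.48 RPKM in NOD week 6.5 and NOD week 4, against 2.27 and 2.52 RPKM in B6 week 7 and B6 week 4 (limma difference 0.68, adjusted p = 0.252). Id2, an inhibitor of E proteins, had 3.5 and 4.64 RPKM in NOD week 6.5 and NOD week 4, against 5.36 and 7.33 RPKM in B6 week 7 and B6 week 4 (limma difference -0.53, adjusted p = 0.401). Pdcd1 had both NOD values above both B6 values, as did 24.9% of all genes with a mean of 1 RPKM or more. Id2 had both NOD values below both B6 values, as did 18.6% of those genes. Id3, the relative of Id2 that pre-TCR signals raise through Egr factors, had 2.89 and 2.63 RPKM in NOD week 6.5 and NOD week 4, against 2.54 and 3.28 RPKM in B6 week 7 and B6 week 4, and the strains overlapped. Cd69, an early activation marker, stayed between 0.43 and 0.75 RPKM. Nab2, a corepressor that Egr factors induce, stayed between 0.24 and 0.44 RPKM. Cd5, whose surface level tracks receptor signal strength, had 3.31 and 0.64 RPKM in NOD week 6.5 and NOD week 4, against 0.98 and 1.9 RPKM in B6 week 7 and B6 week 4, and was highest in NOD week 6.5.

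Upstream and parallel components showed no call either way in most lists. Over all genes tested by strain, limma called 2.78% higher in NOD and 1.59% lower, with 8.23% higher and 4.45% lower by the unadjusted p. Of 20 tested genes of pre-TCR and proximal signalling, limma called 0, with 1 higher in NOD at an unadjusted p under 0.05, and the list's median difference was 0.19. Zap70, a kinase that couples the receptor to its pathway, had 17.99 and 10.47 RPKM in NOD week 6.5 and NOD week 4, against 4.82 and 10.31 RPKM in B6 week 7 and B6 week 4 and was nearly equal at week 4. The list of 11 serum response and ternary complex factors, which also holds Creb1, Crem, Atf1, Mef2a and Mef2d, had 0 calls. It had 0 genes at an unadjusted p under 0.05 by limma and a median of 0.17. The 12 tested MAP kinase phosphatases and Sprouty feedback genes, relatives of Dusp1, had 0 calls, with 1 gene on each side at an unadjusted p under 0.05. Dusp10, a phosphatase of the stress-activated MAP kinases, had the strain order of Dusp1, with 6.74 and 7.05 RPKM in NOD week 6.5 and NOD week 4, against 2.54 and 4.17 RPKM in B6 week 7 and B6 week 4 (limma difference 0.88, adjusted p = 0.114). Spry1, a feedback inhibitor of Ras signalling, had the opposite order, with 1.25 and 1.36 RPKM in NOD week 6.5 and NOD week 4, against 2.18 and 3.1 RPKM in B6 week 7 and B6 week 4 (limma difference -0.65, adjusted p = 0.176). Dusp2, a relative induced in activated lymphocytes, had 20.98 and 19.41 RPKM in NOD week 6.5 and NOD week 4, against 16.87 and 32.01 RPKM in B6 week 7 and B6 week 4, and its strains overlapped. Of 10 tested beta-selection outcome genes, limma called 0 higher in NOD and 1 lower, with 2 higher and 1 lower at an unadjusted p under 0.05. The 2 higher genes were Lef1, with a limma difference of 0.97, and Cd4, with 0.67. The gene called was Aqp11, a water channel gene, lower in NOD by -1.27 (limma adjusted p = 0.0414, or 0.148 without a filter). Without NOD week 6.5, where NOD is 1 library, the difference of Aqp11 was -1.08.

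**Figure D4:**
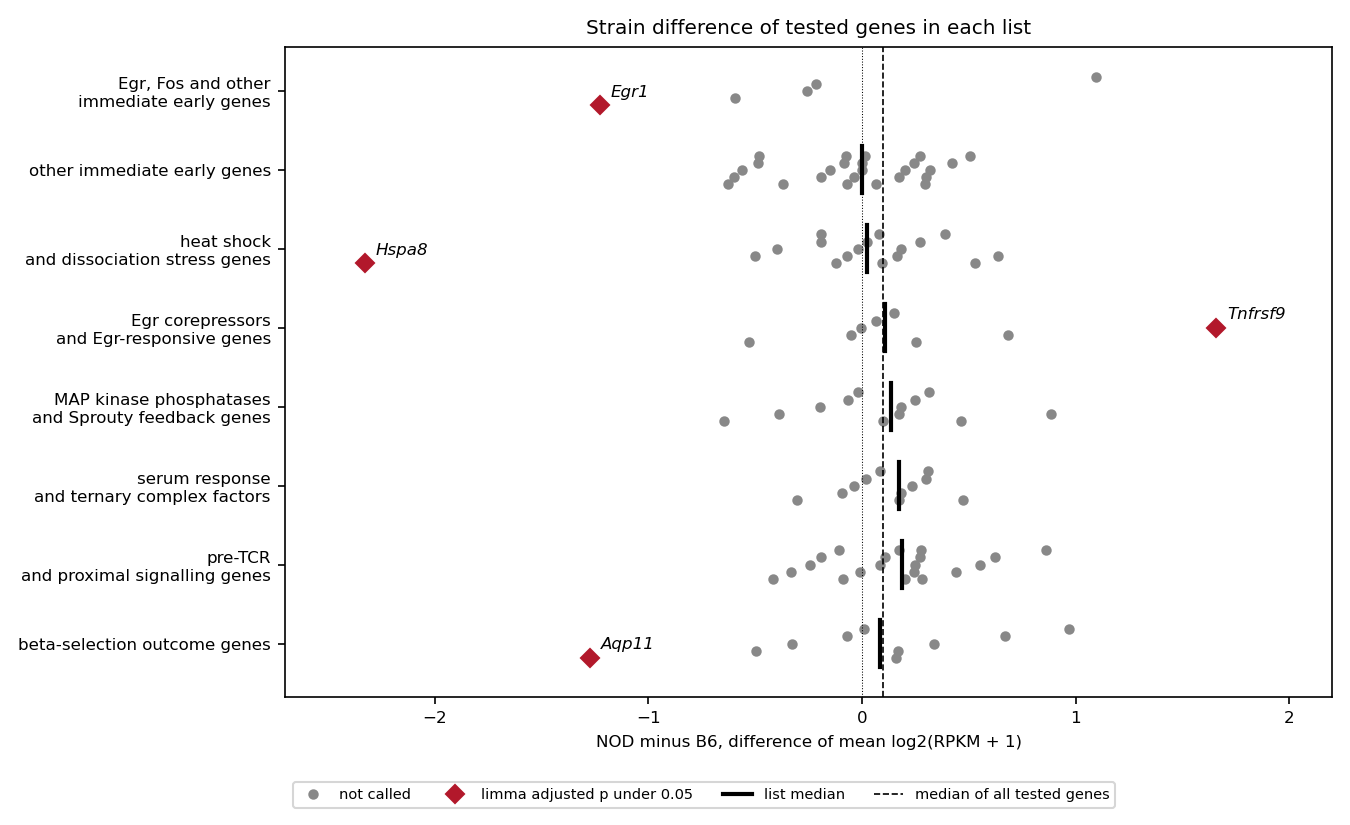
Strain differences (NOD minus B6, horizontal axis, difference of mean log2(RPKM + 1)) of the tested genes of 8 lists; grey points were not called and red diamonds passed limma's adjusted p of 0.05. Black bars are list medians, given for the lists other than the immediate early genes at the top, and the dashed line is the median of all tested genes at 0.096; Egr1 lies at -1.23 while Tnfrsf9 lies at 1.66.

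The genes nearest to Egr1 in pattern over the 4 libraries, by Euclidean distance between centred log2(RPKM + 1) values among 8524 candidates, were Tyki at 0.084, Epsti1 at 0.116, Ndrg2 at 0.134, Slc25a12 at 0.161 and Haao at 0.17. No other member was among them. Nearest to Fos, at larger distances, were Arhgap8 at 0.262, EG668158 at 0.292, Coro2b at 0.384, LOC100043823 at 0.392 and Junb at 0.403. Fos was nearer to Junb than to Egr1, from which it lay 0.68 apart. Dusp1 lay 1.31 to 2.36 from each of the other members. With 4 libraries these distances are a description.

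Some single markers of other cell types were high in B6 week 4. The 10 B-cell markers summed to 55.1 and 42.8 RPKM in NOD week 6.5 and NOD week 4, against 53.4 and 73.4 RPKM in B6 week 7 and B6 week 4. The summed level of 14 myeloid and dendritic cell markers was 30.6 and 32.4 RPKM in NOD week 6.5 and NOD week 4, against 28.5 and 35.2 RPKM in B6 week 7 and B6 week 4. Within that list the neutrophil genes S100a8 and S100a9 had 0.11 and 0.0 RPKM in NOD week 6.5 and 0.59 and 0.12 RPKM in NOD week 4, against 0.12 and 0.09 RPKM in B6 week 7 and 2.24 and 1.8 RPKM in B6 week 4. The summed level of 10 NK and innate lymphoid markers was 97.5 and 110.0 RPKM in NOD week 6.5 and NOD week 4, against 133.0 and 146.0 RPKM in B6 week 7 and B6 week 4, and was lower in both NOD libraries. Nkg7 and Gzma make up most of that sum, and single markers went the other way, such as Zbtb16 with 0.79 and 0.27 RPKM in NOD week 6.5 and NOD week 4, against 0.06 and 0.03 RPKM in B6 week 7 and B6 week 4, and Gzmb with 7.67 RPKM in NOD week 6.5 and at most 0.53 RPKM in the other libraries. The 12 stromal, epithelial and endothelial markers summed to 41.0 and 45.4 RPKM in NOD week 6.5 and NOD week 4, against 43.6 and 57.3 RPKM in B6 week 7 and B6 week 4. The 6 erythroid markers summed to 6.71 and 44.3 RPKM in NOD week 6.5 and NOD week 4, against 12.4 and 42.1 RPKM in B6 week 7 and B6 week 4, and were high at week 4 in both strains. Few genes make up most of the other sums as well. These are Cd79b and Igh-6 for B cells, Lyz2 for myeloid cells, and Epcam and Pecam1 for the stromal list. For the erythroid list they are Hbb-b1 and Hba-a1, of whose reads up to 92.0% and 100.0% were shared. The sums are therefore not levels of a cell type. The part of other cell types in the levels of the immediate early genes was not tested.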

How the data were processed

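The values analysed are RPKM, which the authors deposited per gene with a gene length in kilobases, per the file headers. The deposited tables also give, per the file headers, the fraction of a gene's reads that mapped to more than 1 place. Reads were aligned with Bowtie 0.12.1 to mm9, the B6 sequence, per the submitters' processing notes; the counting program is not given in the sources used here. NOD reads were thus placed on the B6 sequence. That fraction was 0 for all 10 genes in 3 libraries and at most 6.0% in NOD week 6.5.

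The depth of each library was recovered as the number of reads at which values of genes up to 0.6 kilobases are whole reads; 97.6% to 100.0% of them came out whole within 0.1 reads, where chance gives 20.0%. Reads behind each RPKM, exact (Clopper-Pearson) 95.0% intervals of ratios and floors of 3 reads follow from it. In NOD week 6.5 the median gene had 3.0% shared reads, against 0.0% in the other libraries, so its values may have been counted differently.

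Strain and age were each fitted with limma 3.58.1 (R 4.3.3). The input was log2(RPKM + 1) of genes that reached 1 RPKM in at least 2 libraries. Each fit had 1 term and an intensity trend; tests were two-sided, and p-values were adjusted over all genes by Benjamini-Hochberg with calls at 0.05. The 2 libraries of a strain, which differ in age, gave its spread, with 2 residual degrees of freedom. Limma then drew the variance of each gene toward a trend fitted over all genes tested. The labels do not say whether the 2 libraries of a strain came from separate animals. Single libraries were compared by ratios, with no test. A 2-fold difference was taken on RPKM + 1. Alternatives were another pseudocount, filter, scaling or variance prior, a block, fewer shared reads and each library left out; the filter on the mean over libraries was added after seeing the data. The limma step was tested on simulated data. All 10 genes are described; from the other lists, genes called by limma or among those with the largest differences in the comparison described are named, and all other genes named, such as Id3, Cd69, Nab2, Cd5, Dusp2, Hspa1a, Hspa1b and single cell type markers, were picked after their values were seen. The members and lists were chosen with earlier results of these data known.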

Additional observations from a re-analysis of the deposited data

Results flagged for a closer look

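Ier2 moved in opposite directions in the strains and at the ages compared. Its ratio of the later age to week 4 was 1.33 (1.08 to 1.65) in NOD, against 0.425 (0.349 to 0.516) in B6. Its ratio of NOD to B6 was 1.43 (1.16 to 1.74) at the later age and 0.455 (0.369 to 0.557) at week 4. These are the same 4 values seen from both sides. The difference between the changes was not tested, since each group is 1 library. After median ratio scaling the NOD to B6 ratio at the later age was 1.18 (0.96 to 1.44), so that comparison no longer departs from 1.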

How the results depend on the processing

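The strain difference of Egr1 kept its sign under every alternative that tested it, which the filter at 5 RPKM did not. Its limma adjusted p was between 1.08e-07 with age class as a block and 0.163 without a filter. The call was lost without a filter and without the intensity trend (0.0509). In the block fits, the p of a gene rests on the variance pooled over genes, not on its own spread. The difference was -2.58 and -0.40 with pseudocounts of 0.1 and 5, since its level is near the pseudocount. Dusp1 kept its sign as well, and was called with the age block and without B6 week 4 only. In the limma fits, the signs that turned belong to differences that were never called, and each turned when B6 week 4 or NOD week 6.5 was left out. Between single libraries, Egr1 in NOD week 6.5 minus NOD week 4, at 0.04, became -0.01 with quantile scaling. With a library left out, the strain difference ran between -0.63 and 0.20 for Jun (0.03 without NOD week 6.5) and between -0.74 and 0.22 for Ier2. The age difference then ran between -1.05 and 0.49 for Egr1 (0.17 without NOD week 6.5) and between -0.77 and 0.12 for Ier2. The highest value of each was reached without B6 week 4. For single genes, 237 values kept their call or moved by less than their error, 21 moved further, 6 turned in the limma fits, 2 gained and 2 lost a call.

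Counts over all genes moved more, and the cause was not tested. Of genes called by strain, 542 in all, there were 122 without a filter, 239 at 5 RPKM or more, 191 with under 10% shared reads, 1005 with the age block, and between 468 and 3371 with a library left out, the largest without B6 week 4. By age, 0 genes were called, 49 with strain as a block and between 0 and 6 with a library left out. The 2-fold count of NOD week 6.5 against NOD week 4 was 93, and became 203 and 35 with pseudocounts of 0.1 and 5 and 44 at 5 RPKM or more. B6 week 7 against B6 week 4 gave 390, and 797 and 113 with those pseudocounts, 163 and 147 with median ratio and quantile scaling, and 250 with under 10% shared reads. NOD week 4 against B6 week 4 gave 552, and 836 and 211 with those pseudocounts, 338 at 5 RPKM or more and 268 with under 10% shared reads. NOD week 6.5 against B6 week 7 gave 856, and 1352 and 313 with those pseudocounts and 512 with under 10% shared reads. No pairing by replicate number could be fitted, as the labels give no numbers, and the age block pairs the strains by age class only. At 17040000 to 24080000 reads, Egr2, Egr3 and Nr4a1 had too few reads for a comparison.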
